A study of Oryza sativa with 6 samples.

Results

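Chlorophyll breakdown and leaf senescence genes were followed in mature rice leaves of an SRL1 knockout, given as 9 genes named by their identifiers among the 39477 loci of the deposited expression table. They were NYC1, NOL, SGR, SGRL, NYC3, PAO and RCCR1, which act on chlorophyll, and the transcription factors NAP and NAC2. The identifiers were matched exactly, and all 9 had a row. Of these, 8 reached a mean of 1 FPKM (fragment counts corrected for transcript length and for the fragments mapped in the library) over the libraries and could be tested among 19556 loci. SGRL fell below that level.

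The study compared SRL1 knockout mutants (srl1-KO, 3 libraries) with a control that lacks the knockout (non-KO, 3 libraries), to learn which genes differ in expression when SRL1 is lost. SRL1 encodes a putative membrane-anchored protein known in rice for its effect on leaf rolling. Leaves of both genotypes were taken 60 days after germination from greenhouse plants kept at 30 °C in the day and 25 °C at night. The labels give neither the variety, nor how the knockout was made, nor how many independent lines it stands for. They speak of leaves from 1 plant without saying how the libraries relate to plants, so the p-values measure the spread between these libraries, which may be technical.

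Summed FPKM ran from 598611 to 628270 over the libraries, and 18861 to 19342 loci reached 1 FPKM. The absolute depth is unknown. SRL1 itself was at 1.62, 2.22 and 1.96 FPKM in srl1-KO and at 2.50, 2.70 and 3.30 FPKM in non-KO, with a log2 change of -0.39 and a limma adjusted p of 0.107, so transcript levels do not settle the labels. The leaf label was checked against Rubisco small subunit genes, whose 4 members summed to 9163 to 10491 FPKM in srl1-KO and 10206 to 16319 FPKM in non-KO. Of these 4 close copies, Os12g0291100 was called lower, at 2493 ± 64.5 FPKM in srl1-KO and 3721 ± 195 FPKM in non-KO (SD, n = 3 each; limma adjusted p = 0.0427; past the threshold in 8 of 17 alternative settings, and lost when any 1 library was left out). The meristem gene OSH1 was listed at 0 in every srl1-KO library and in 2 of 3 non-KO libraries, with 0.0171 FPKM in the other one. In leaf tissue as a whole, fewer cells of a type and less RNA per cell cannot be told apart.

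Leaves turn yellow when chlorophyll is taken apart in the chloroplast in an ordered chain. Chlorophyll b is first turned back into chlorophyll a by chlorophyll b reductase (NYC1 and NOL) and a second reductase (HCAR). SGR then removes the magnesium, pheophytinase (NYC3) removes the phytol tail, pheophorbide a oxygenase (PAO) opens the ring, and red chlorophyll catabolite reductase (RCCR1) makes a product that is exported to the vacuole. NAP and NAC2 are NAC transcription factors known in rice to hasten leaf senescence, and both have been linked there to genes of this chain.

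In srl1-KO leaves, PAO and NAP rose and NAC2 fell, while the other 5 tested genes did not pass the test. This makes 2 genes higher and 1 lower of 8 tested, read against a background of 27.2% of all tested loci called in either direction by limma (15.3% higher and 11.9% lower in srl1-KO), so the number of calls by itself does not set these genes apart. The median log2 change of the 8 genes was 0.28, against 0.11 over all tested loci. Changes are differences of mean log2(FPKM + 1), srl1-KO minus non-KO, a scale that shrinks the changes of low genes, and a call means a Benjamini-Hochberg adjusted p under 0.05 over all tested loci. The genotypes did not overlap at 3 of the 8 genes, the same 3 that were called, against a background of 47.1% of tested loci (29.4% higher and 17.8% lower in srl1-KO).

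**Figure D1:**
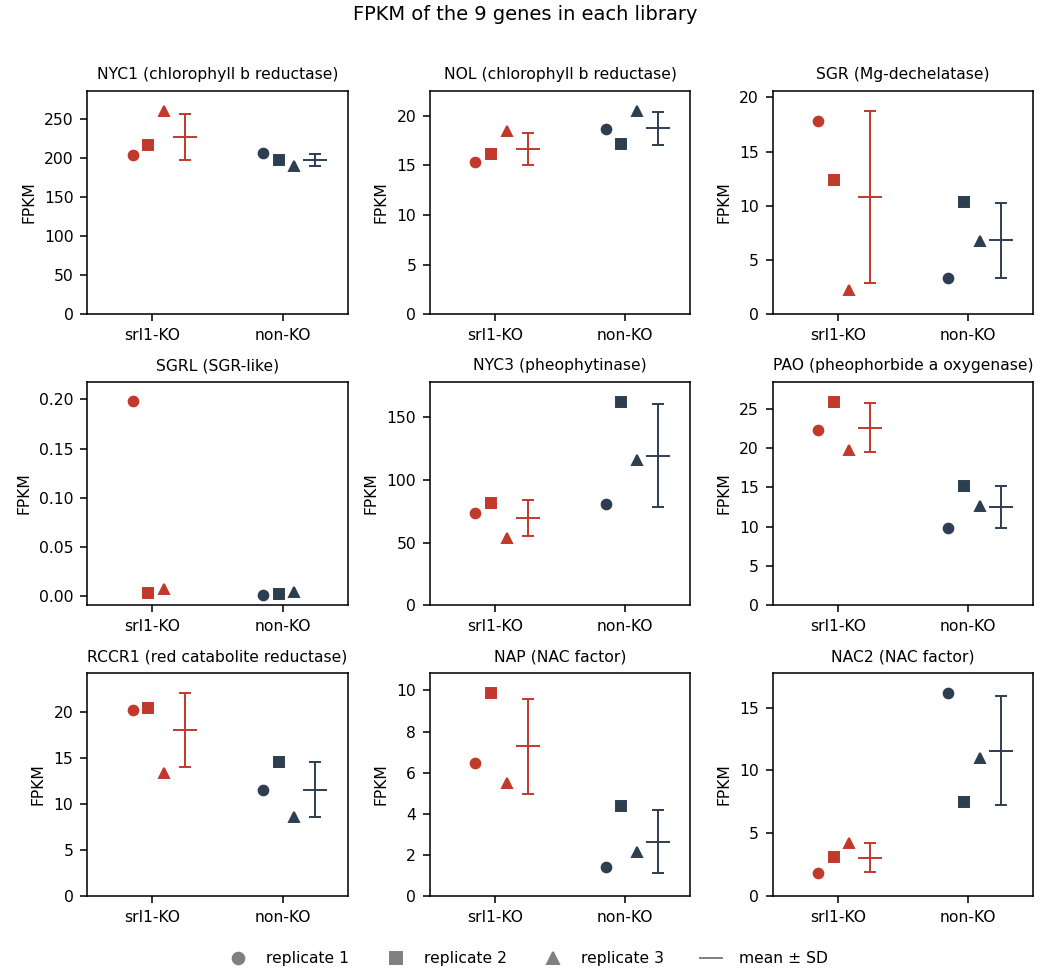
FPKM (vertical axes, linear, a separate scale for each gene) in each of the 3 srl1-KO and 3 non-KO libraries, with points for libraries and a horizontal mark and bar for the mean ± SD, left out for SGRL. PAO and NAP lie higher and NAC2 lower in every srl1-KO library than in any non-KO library, while the other genes overlap between genotypes.

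The most abundant transcript of the 9 belongs to the first step, chlorophyll b reduction. NYC1 (Os01g0227100, chromosome 1), a subunit of chlorophyll b reductase, stood at 204, 217 and 260 FPKM in srl1-KO and at 206, 198 and 191 FPKM in non-KO. The non-KO libraries lay close together, and srl1-KO replicate 1 fell among them. Its mean of 227 ± 29.3 FPKM in srl1-KO was above 98.5% of tested loci, and its mean of 198 ± 7.74 FPKM in non-KO above 97.9% (SD, n = 3 each). The log2 change of 0.19 ± 0.13 (SE) did not pass the threshold (limma adjusted p = 0.303), and its 95% interval ran from -0.12 to 0.49.

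NOL (Os03g0654600, chromosome 3), the NYC1-like partner subunit, was expressed at a much lower level. It was at 15.3, 16.1 and 18.4 FPKM in srl1-KO and at 18.7, 17.2 and 20.5 FPKM in non-KO. The highest srl1-KO library lay within the non-KO range. The log2 change was -0.16 ± 0.12 (SE; limma adjusted p = 0.328), with a 95% interval from -0.44 to 0.12. The ratio of the 2 subunits within a library, which does not depend on how libraries are scaled, is a closer comparison. NYC1 was 13.3, 13.4 and 14.1 times NOL in the srl1-KO libraries and 11.0, 11.5 and 9.31 times NOL in the non-KO libraries. Every srl1-KO ratio was above every non-KO ratio, by a mean of 0.36 on the log2 scale. By two-sided exact permutation p was 0.1, which is the lowest value available with 3 libraries on each side, and 0.167 after Benjamini-Hochberg adjustment over the 5 gene pairs compared in this way.

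HCAR (Os04g0320100), which completes the conversion to chlorophyll a and is not one of the 9 genes, was also abundant. It was at 111, 114 and 127 FPKM in srl1-KO and at 105, 116 and 115 FPKM in non-KO, with overlap. Its log2 change, 0.07 ± 0.11 (SE; limma adjusted p = 0.674), turned to -0.068 with trimmed-mean (TMM) scaling.

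SGR (Os09g0532000, chromosome 9), the magnesium-removing enzyme whose loss gives stay-green leaves, varied more between libraries of 1 genotype than between genotypes. It was at 17.9, 12.4 and 2.27 FPKM in srl1-KO and at 3.35, 10.3 and 6.80 FPKM in non-KO. The highest and the lowest of the 6 values were both srl1-KO libraries. The coefficient of variation was 73.0% in srl1-KO and 51.1% in non-KO, the largest among the 8 tested genes in srl1-KO and second to NAP in non-KO. The log2 change was 0.37 ± 0.68 (SE; limma adjusted p = 0.719), and its 95% interval, -1.27 to 2.0, leaves room for a large rise or a large fall. Without srl1-KO replicate 1 the change became -0.14.

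SGRL (Os04g0692600, chromosome 4), a second gene of the SGR family, was barely detected. It was listed at 0.198, 0.00297 and 0.00625 FPKM in srl1-KO and at 0.000472, 0.00174 and 0.00319 FPKM in non-KO. Only srl1-KO replicate 1, which was also the library with the highest SGR value, stood apart from values near 0. The gene was too low to be tested with the others, and a two-sided exact permutation test gave p = 0.2. For the same reason the SGR to SGRL ratio, whose mean log2 value was 9.01 in srl1-KO and 12.1 in non-KO with overlap (exact permutation p = 0.2, adjusted p = 0.25), rests on values close to 0.

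NYC3 (Os06g0354700, chromosome 6), the pheophytinase, was second in abundance to NYC1. It was at 74.0, 81.9 and 53.6 FPKM in srl1-KO and at 80.6, 162 and 116 FPKM in non-KO. The genotypes overlapped only because srl1-KO replicate 2 was slightly above non-KO replicate 1. The mean was 69.9 ± 14.6 FPKM in srl1-KO and 119.5 ± 41.0 FPKM in non-KO (SD, n = 3 each). The log2 change of -0.73 ± 0.28 (SE) did not pass the threshold (limma adjusted p = 0.0966), although it did without non-KO replicate 1 (adjusted p = 0.0456).

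The 2 most abundant transcripts of the 9 were also compared within each library. NYC1 was 2.76, 2.65 and 4.85 times NYC3 in srl1-KO and 2.56, 1.22 and 1.65 times NYC3 in non-KO. All srl1-KO ratios were higher, though the lowest of them was close to the highest of non-KO. The mean difference was 0.93 on the log2 scale (exact permutation, two-sided, p = 0.1, the smallest possible; adjusted p = 0.167 over the 5 pairs).

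PAO (Os03g0146400, chromosome 3), the oxygenase that opens the chlorophyll ring, rose in srl1-KO. It was at 22.2, 25.8 and 19.7 FPKM in srl1-KO and at 9.79, 15.2 and 12.6 FPKM in non-KO. The lowest srl1-KO library was above the highest non-KO library. The mean of 22.6 ± 3.08 FPKM in srl1-KO was 1.80 times that of 12.5 ± 2.70 FPKM in non-KO (SD, n = 3 each). The log2 change was 0.81 ± 0.18 (SE; limma adjusted p = 0.0181). Dropping srl1-KO replicate 1 ended this call (adjusted p = 0.0519), as did dropping srl1-KO replicate 2 (adjusted p = 0.0685).

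RCCR1 (Os10g0389200, chromosome 10) acts on the product of PAO. It was at 20.3, 20.5 and 13.4 FPKM in srl1-KO and at 11.6, 14.6 and 8.61 FPKM in non-KO. Only srl1-KO replicate 3 reached into the non-KO range. Its log2 change of 0.60 ± 0.23 (SE) missed the threshold (limma adjusted p = 0.0979), but passed it with library weights (adjusted p = 0.0424) and once srl1-KO replicate 3 was dropped (0.048). The PAO to RCCR1 ratio was 1.09, 1.26 and 1.47 in srl1-KO and 0.847, 1.04 and 1.46 in non-KO, with overlap (exact permutation p = 0.4, adjusted p = 0.4).

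NAP (Os03g0327800, chromosome 3) is a NAC factor that in rice is induced by abscisic acid and promotes senescence. It was at 6.48, 9.88 and 5.50 FPKM in srl1-KO and at 1.45, 4.39 and 2.13 FPKM in non-KO, and the genotypes did not overlap. The mean was 7.28 ± 2.30 FPKM in srl1-KO and 2.66 ± 1.54 FPKM in non-KO (SD, n = 3 each), a 2.74-fold difference. The log2 change was 1.23 ± 0.33 (SE; limma adjusted p = 0.0357). The rise was past the threshold in 10 of 16 alternative settings, and was lost without srl1-KO replicate 1 (adjusted p = 0.0757), srl1-KO replicate 2 (0.112), non-KO replicate 1 (0.0948) or non-KO replicate 3 (0.0896), with TMM scaling (adjusted p = 0.0522) and with no filter on low loci (adjusted p = 0.0702).

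NAC2 (Os04g0460600, chromosome 4), the other NAC factor, fell in srl1-KO. It was at 1.88, 3.11 and 4.24 FPKM in srl1-KO and at 16.2, 7.52 and 11.0 FPKM in non-KO. Every srl1-KO library was below every non-KO library. The mean was 3.08 ± 1.18 FPKM in srl1-KO and 11.6 ± 4.34 FPKM in non-KO (SD, n = 3 each), so that non-KO was 3.75-fold higher. The log2 change was -1.61 ± 0.31 (SE; limma adjusted p = 0.0121), and it passed the threshold in all 17 alternative settings, with adjusted p from 0.00747 to 0.043.

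**Figure D2:**
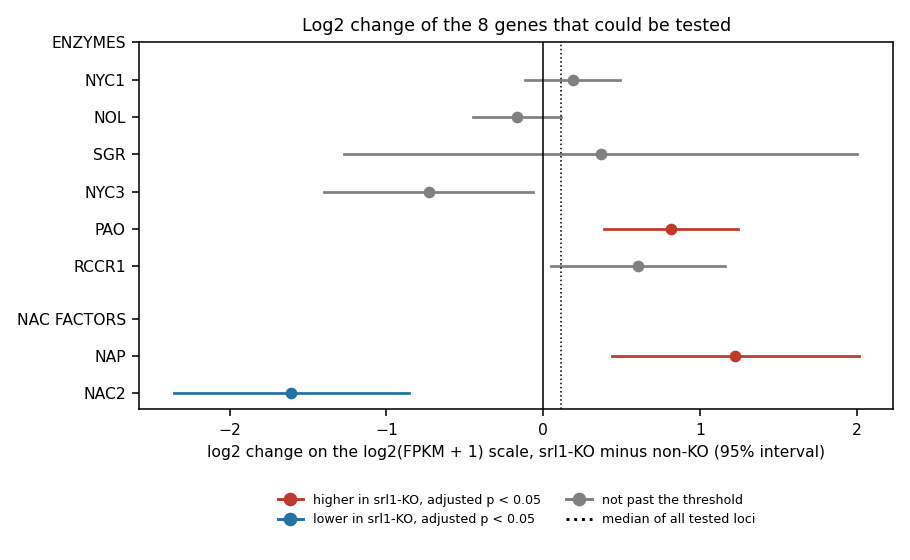
Log2 change (horizontal axis, difference of mean log2(FPKM + 1), srl1-KO minus non-KO) of the 8 tested genes, with bars for the 95% interval and a dotted line at the median of all tested loci, 0.11. PAO and NAP were called higher and NAC2 lower, and the SGR interval is the widest, from -1.27 to 2.0.

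The 2 NAC factors thus changed in opposite directions and exchanged their order of abundance. NAP was 3.44, 3.17 and 1.3 times NAC2 in the srl1-KO libraries and 0.0895, 0.584 and 0.194 times NAC2 in the non-KO libraries. NAP was the more abundant factor in 3 of 3 srl1-KO libraries and NAC2 in 3 of 3 non-KO libraries. The mean log2 ratio was 1.27 ± 0.78 in srl1-KO and -2.21 ± 1.36 in non-KO (SD, n = 3 each), a difference of 3.48 that stayed between 2.85 and 4.20 when any 1 library was left out. By exact permutation p was 0.1, the smallest possible (adjusted p = 0.167 over the 5 pairs).

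**Figure D3:**
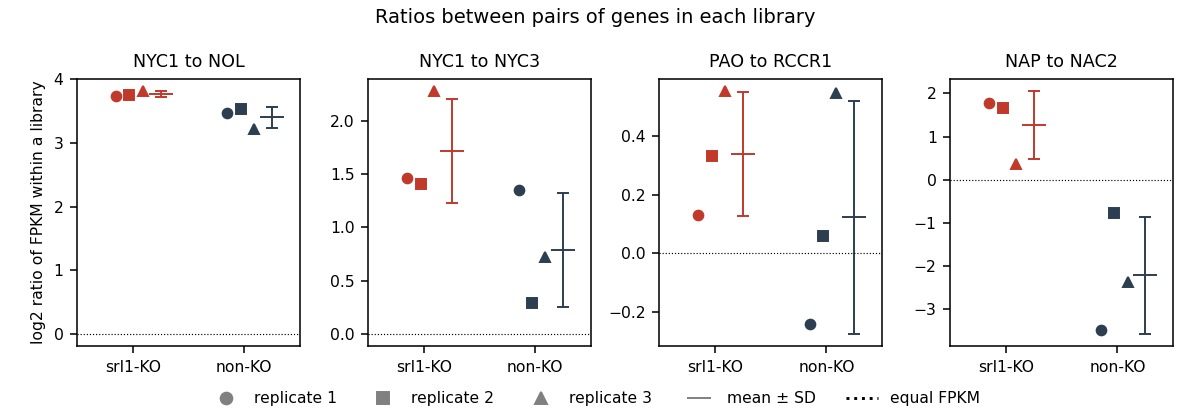
Log2 ratio of FPKM between 2 genes within each library (vertical axes, a separate scale for each pair), with points for libraries, a mark and bar for the mean ± SD, and a dotted line where both genes have equal FPKM. The NAP to NAC2 ratio lies above equality in all 3 srl1-KO libraries and below it in all 3 non-KO libraries, and the PAO to RCCR1 ratio overlaps between genotypes.

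The order of FPKM levels was otherwise similar in the genotypes. NYC1 came first and NYC3 next in both, without overlap with each other or with the gene that followed. In srl1-KO the next were PAO, RCCR1, NOL, SGR and NAP, each overlapping in range with its neighbour. NAC2 stood below NAP without overlap, although SGR, at 2.27 FPKM in srl1-KO replicate 3, reached into the NAC2 range. SGRL came last, without overlap with NAC2. In non-KO, NOL came after NYC3 without overlap with PAO. PAO, RCCR1, NAC2, SGR and NAP followed, each overlapping with its neighbour, and SGRL came last. The place of NAC2 differed most, above 21.7% of tested loci in srl1-KO and above 58.5% in non-KO. NAP was above 43.9% of tested loci in srl1-KO and above 20.9% in non-KO.

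Within a genotype, several of these genes were high and low in the same libraries. SGR, NYC3, PAO, RCCR1 and NAP were all lowest in srl1-KO replicate 3 among the srl1-KO libraries and highest in non-KO replicate 2 among the non-KO libraries. This held for 5 of the 9 genes, against 14.8% of tested loci, and was looked for after the values had been seen. NYC3, PAO and NAP had the same order of all 3 libraries in both genotypes, an order shared by 3.61% of tested loci. NYC1, NOL and NAC2 ran otherwise, being highest in srl1-KO replicate 3. What sets these libraries apart was not tested.

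The likeness of profiles was measured as the mean absolute difference between log2(FPKM + 1) values centred on each gene's mean over the 6 libraries, among 50 other genes of the lists used here. The closest profile to NAP was that of PAO, at 0.26. The closest to both PAO and RCCR1 was ATG8A, at 0.16 and 0.20. NYC1 was closest to HCAR (0.09), NOL to the chlorophyll synthase gene CHLG (0.13), NYC3 to WRKY53 (0.22), NAC2 to HEMA1 (0.42) and SGR to ONAC011 (0.52). The measure keeps the difference between genotypes, so genes that shift alike, or hardly vary, lie close. Distances to loci outside the lists were not measured.

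Other genes known to regulate leaf senescence in rice were taken as a list. Of 9 listed, 7 could be tested, of which 3 fell in srl1-KO and none rose (limma; 1 was higher at an unadjusted p under 0.05), beside 11.9% of all tested loci called lower and 15.3% higher. The median log2 change was -0.12, against 0.11 over all tested loci. MYB102 (Os06g0637500), a MYB factor known to delay senescence, was at 1.06, 1.05 and 1.24 FPKM in srl1-KO and at 12.9, 12.2 and 13.0 FPKM in non-KO. The values were nearly constant within each genotype, and the log2 change was -2.70 ± 0.11 (SE; limma adjusted p = 5.3e-05). WRKY53 (Os05g0343400) and WRKY42 (Os02g0462800), both known to promote senescence, also fell. WRKY53 was at 135, 117 and 98.3 FPKM in srl1-KO and at 224, 242 and 225 FPKM in non-KO (log2 change -0.98 ± 0.14 SE; limma adjusted p = 0.00403). WRKY42 was at 1.52, 0.945 and 0.985 FPKM in srl1-KO and at 3.40, 5.70 and 5.48 FPKM in non-KO (log2 change -1.43 ± 0.21 SE; limma adjusted p = 0.00466). The list thus holds a fall of a gene that delays senescence beside falls of genes that promote it. All 3 passed the threshold in every alternative setting in which they were tested.

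Genes of nutrient recycling, which moves nitrogen and carbon out of ageing leaves, were taken as a further list. Of 12 listed, 9 could be tested, of which 5 rose and none fell (limma; 1 was lower at an unadjusted p under 0.05), beside 15.3% of all tested loci called higher and 11.9% lower. The median log2 change was 0.41, against 0.11 over all tested loci. They included genes of ATG8 proteins, which coat autophagy membranes. ATG8A (Os07g0512200) was at 132, 121 and 115 FPKM in srl1-KO and at 79.8, 78.9 and 76.0 FPKM in non-KO, without overlap (log2 change 0.64 ± 0.10 SE; limma adjusted p = 0.00522). ATG8B (Os04g0624000) was at 38.5, 37.8 and 39.2 FPKM in srl1-KO and at 29.2, 28.8 and 27.8 FPKM in non-KO (log2 change 0.42 ± 0.09 SE; limma adjusted p = 0.0148). PPDKB (Os05g0405000), a pyruvate phosphate dikinase, averaged 33.8 ± 3.81 FPKM in srl1-KO and 22.0 ± 2.72 FPKM in non-KO (SD, n = 3 each; limma adjusted p = 0.0201). The other rises, named after their values had been seen, were ATG8C (Os08g0191600; log2 change 0.41 ± 0.10 SE; limma adjusted p = 0.0249) and the asparagine synthetase gene ASN1 (Os03g0291500; log2 change 0.91 ± 0.22 SE; limma adjusted p = 0.0249). ASN1 was low, at 1.34, 1.81 and 1.80 FPKM in srl1-KO and at 0.300, 0.167 and 0.816 FPKM in non-KO. It reached a mean of 1 FPKM only through srl1-KO, and its place among the 5 rises rests on that. Leaving out any srl1-KO library took ASN1 out of the test. ATG8A passed in all 17 alternative settings, while ATG8C passed in 10 of 17, ATG8B in 13, PPDKB in 12 and ASN1 in 10 of the 13 in which it was tested. The count of rises was 2 with TMM scaling and between 1 and 4 without 1 library, being lowest without srl1-KO replicate 1. GDH2 (Os04g0543900), named after its values had been seen, went the other way without overlap. It was at 10.3, 8.87 and 7.98 FPKM in srl1-KO and at 12.4, 13.1 and 23.3 FPKM in non-KO. Its log2 change of -0.73 ± 0.24 (SE) missed the threshold (limma adjusted p = 0.0668). It passed with TMM scaling (adjusted p = 0.0437) and quantile normalization (adjusted p = 0.0492).

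Chlorophyll synthesis genes build the pigment that the chain above takes apart. Of 10 chlorophyll synthesis genes tested, 1 rose and 1 fell by limma, shares close to the background of 15.3% called higher and 11.9% lower. By the same fit 3 were higher and 2 lower at an unadjusted p under 0.05. The median log2 change was -0.09, against 0.11 over all tested loci. HEMA1 (Os10g0502400), a glutamyl-tRNA reductase at the head of the pathway, fell to 133, 174 and 178 FPKM in srl1-KO, against 269.2, 269.9 and 303 FPKM in non-KO (log2 change -0.80 ± 0.15 SE; limma adjusted p = 0.00971). PORA (Os04g0678700), a light-dependent protochlorophyllide reductase, rose to 264, 481 and 456 FPKM in srl1-KO, against 227, 112 and 176 FPKM in non-KO (log2 change 1.23 ± 0.33 SE; limma adjusted p = 0.0355). The PORA call was lost in 7 of 17 alternative settings, among them TMM scaling (adjusted p = 0.051) and leaving out replicate 2 or replicate 3 of either genotype (adjusted p from 0.0723 to 0.115).

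The antenna proteins of photosystem II hold much of the leaf's chlorophyll b. None of the 8 genes was called by limma, beside 15.3% of all tested loci called higher and 11.9% lower. By the same fit 1 was higher at an unadjusted p under 0.05. Counts at an unadjusted p, here and in the lists above, have no share of all tested loci beside them. Their FPKM summed to between 10063 and 15765 in srl1-KO and between 8062 and 10329 in non-KO, and the median log2 change was 0.42, against 0.11 over all tested loci. All 8 changes were positive with the values as deposited, but LHCB1.3 and LHCB6 turned negative with TMM scaling and LHCB6 also with quantile normalization. The most abundant, LHCB1.2 (Os09g0346500), was at 2312, 3998 and 3181 FPKM in srl1-KO and at 1573, 2284 and 3215 FPKM in non-KO, with overlap (log2 change 0.45 ± 0.33 SE; limma adjusted p = 0.344). LHCB1.1 (Os01g0600900), named after its values had been seen, was at 1754, 3537 and 3008 FPKM in srl1-KO and at 1101, 943 and 1729 FPKM in non-KO, without overlap. Its log2 change of 1.13 ± 0.34 (SE) narrowly missed the threshold (limma adjusted p = 0.0523) and passed it in 7 of 17 alternative settings. LHCB1 genes are close copies of each other, so the split of fragments between them is uncertain.

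**Figure D4:**
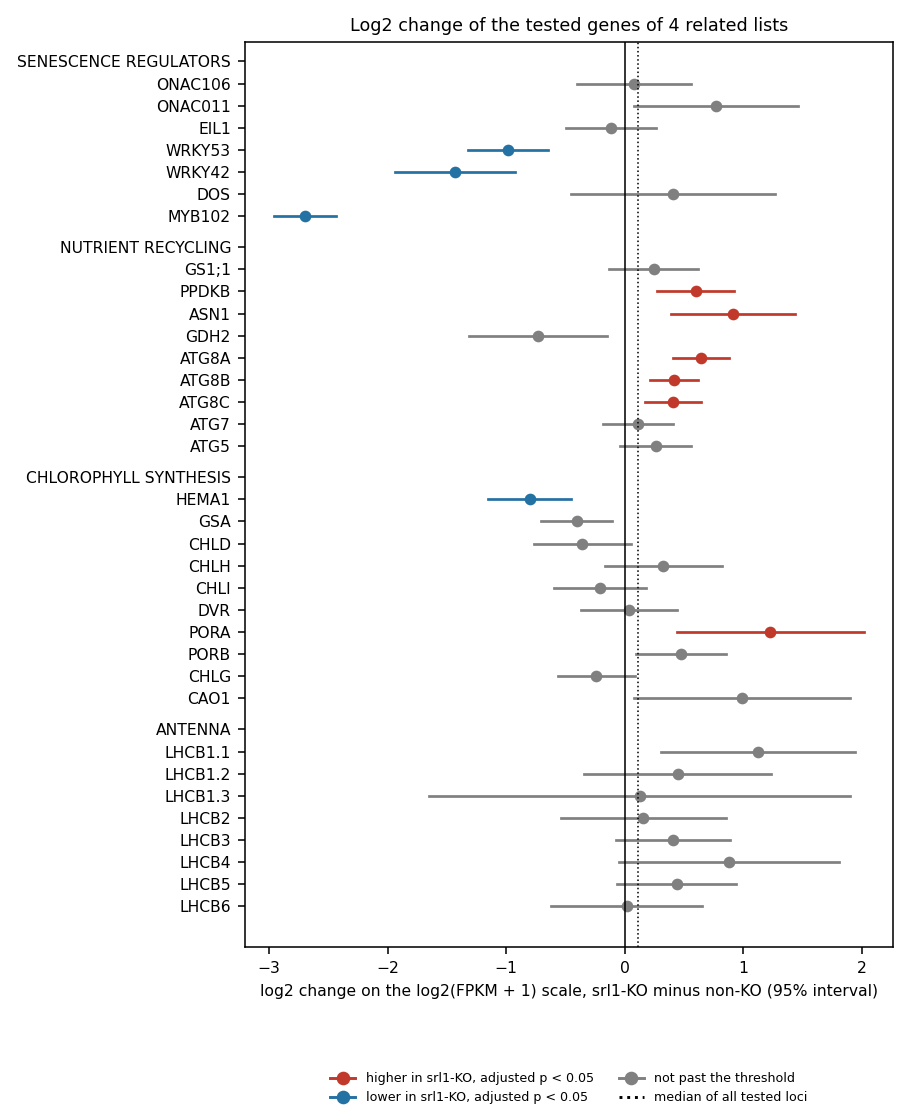
Log2 change (horizontal axis, difference of mean log2(FPKM + 1), srl1-KO minus non-KO, bars for the 95% interval) of the tested genes of 4 related lists, with a dotted line at the median of all tested loci, 0.11. MYB102 shows the largest fall, at -2.70, and the 3 ATG8 genes lie together between 0.41 and 0.64.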

How the data were processed

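Poly(A) RNA from 6 leaf libraries was sequenced, per the labels' protocols. The authors deposited 1 table of FPKM values with a column for each library. HISAT2, DESeq2 and the build IRGSP-1.0 are named, without roles, per the submitters' processing notes. The annotation, the tool behind the FPKM values and whether strand was used are not given in the sources used. The ratios of barely detected loci between libraries (both between 0 and 0.1 FPKM) put 3.46% to 4.78% of them in 1 narrow bin, so whole fragments were not recovered, the depth is unknown and no counting interval is given. Columns were matched to samples by the sample names in the headers, and no 2 libraries were identical.

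From the FPKM values, log2(FPKM + 1) of loci averaging 1 FPKM or more was fitted with limma 3.58.1 in R 4.3.3 (eBayes with trend, two-sided, Benjamini-Hochberg over all tested loci, threshold 0.05), after tests on simulated data. Single ratios were compared by exact permutation over libraries. Alternatives were pseudocounts of 0.1 and 0.5, no filter and a filter at 5 FPKM, 3 other scalings, a replicate block, eBayes without trend or robust, library weights, and leaving out each library.

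The genes and lists were chosen with earlier results of these data known. The 9 genes are all named, and from each list the text names up to 3 called genes, taken by adjusted p, or the most abundant one where none was called. ATG8C, ASN1, GDH2, LHCB1.1 and the called Rubisco gene were named besides, after their values had been seen. The file does not pair identifiers with names. List names come from general knowledge. Of 55 names looked up in a RefSeq table of the assembly ASM3414082v1, 28 stood on the chromosome given by the identifier, 27 were not found there and none stood only on another chromosome. Of the 9 genes, 5 were found and SGRL, NYC3, PAO and NAP were not. Found names that share a chromosome made 34 pairs, all ordered alike in the identifiers and the table.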

Additional observations from a re-analysis of the deposited data

How the results depend on the processing

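Trimmed-mean (TMM) scaling moved the median log2 change of all tested loci from 0.11 to -0.01; relative to the median with the values as deposited, PAO changed by 0.70, NAP by 1.11 and NAC2 by -1.72. Calls split into 56.3% higher (2995 higher and 2326 lower) as deposited and 40.0% higher (1934 and 2904) with TMM. Without 1 library there were 2959 to 4638 calls, 1324 to 2564 of them higher.

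Among the 9 genes, 1 was called higher with no filter, with the filter at 5 FPKM (where NAP was not tested) and with TMM; without 1 library 0 to 3 were higher and 1 to 2 lower. None was higher without srl1-KO replicate 1 or 2. Regulators called higher became 1 with library weights and 0 to 1 without 1 library. Recycling genes called higher became 2 with TMM and 1 to 4 without 1 library, and those called lower became 1 with TMM and with quantile normalization. Chlorophyll synthesis genes called higher became 0 with no filter and with TMM, 2 with quantile normalization and library weights, and 0 to 2 without 1 library; those called lower became 2 with TMM and library weights, and 1 to 2 without 1 library. Antenna genes called higher became 1 with the filter at 5 FPKM, equal sums, no trend, robust fitting and library weights, and 0 to 1 without 1 library. SRL1 passed with quantile normalization (-0.50, adjusted p = 0.0488).

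Genes not called turned sign with TMM (HCAR -0.068, ATG7 -0.014, DVR -0.095, LHCB1.3 -0.0072, LHCB6 -0.119), quantile normalization (ONAC106 -0.031, EIL1 0.035, LHCB6 -0.014), library weights (DVR -0.041) and without 1 library (SGR -0.14 to 1.13, ONAC106 -0.033 to 0.215, EIL1 -0.224 to 0.016, DVR -0.092 to 0.154, LHCB1.3 -0.58 to 0.74, LHCB2 -0.023 to 0.406, LHCB6 -0.22 to 0.21). No called gene among the 9, the 4 related lists and the Rubisco genes turned sign in any alternative run. The causes were not tested.

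The labels do not say that the replicate numbers pair libraries. Deviations of same-numbered libraries correlated at -0.05, 0.05 and 0.02. With the replicate block 3649 loci were called, 1765 of them higher, RCCR1 passed (adjusted p = 0.0362), recycling genes called higher became 1 and chlorophyll synthesis genes called higher became 0.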

Other observations

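Some genes of the lists were too low to be tested. OSH36 was at 0.427, 0.667 and 0.285 FPKM in srl1-KO and at 1.01, 0.635 and 0.605 FPKM in non-KO, with overlap. The senescence regulators ONAC054 and ABI5 had means of 0.196 and 0.0862 FPKM in srl1-KO and of 0.151 and 0.0375 FPKM in non-KO. ICL, the isocitrate lyase of the glyoxylate cycle, was at or below 0.0701 FPKM in every srl1-KO library and at or below 0.043 FPKM in every non-KO library. SAG12-2, a cysteine protease gene named for senescence, was listed at 0 in all 6 libraries.

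The markers of other cells overlapped between genotypes. The 3 secondary-wall cellulose synthase genes summed to between 2.82 and 8.07 FPKM in srl1-KO and between 2.05 and 18.4 FPKM in non-KO, and none was called by limma or had an unadjusted p under 0.05. PCNA, a marker of dividing cells, was at 11.0, 12.1 and 12.4 FPKM in srl1-KO and at 8.01, 8.04 and 11.8 FPKM in non-KO, with overlap.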
